A study of Mus musculus with 8 samples.

Results

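Transcript levels in elicited macrophages that had received an siRNA against GABP (siGABP) were compared with those in macrophages that had received an siRNA against MLL (siMLL), on 6 of the 8 Illumina mouse arrays of the series. The 6 arrays were those whose labels name either siRNA. The macrophages came from the peritoneum of C57BL/6 mice injected with thioglycollate. The 4 groups were siMLL untreated (3 arrays, numbered as replicates), siMLL after 6 h of Kdo2 lipid A (KLA, 1 array), siGABP untreated (1 array) and siGABP after 6 h of KLA (1 array). Every array thus came from cells that carried an siRNA, and the 2 arrays of cells with the scrambled siRNA were used in no step, so that the siGABP and the siMLL side of a difference cannot be told apart. The labels do not say whether the 3 siMLL replicates were separate animals, cultures or transfections, and p-values may therefore measure technical spread only. Which GABP subunit or MLL gene was targeted, with what oligonucleotide, dose and time, is not given in the sources used here.

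GABP is an ETS-family transcription factor made of an alpha subunit (Gabpa), which binds DNA, and a beta subunit (Gabpb1 or Gabpb2), which carries the activation domain. It is known for binding the proximal promoters of housekeeping genes, among them many genes of the respiratory chain and the ribosome, and of several myeloid genes. MLL (Kmt2a) methylates histone H3 at lysine 4 at promoters and is known for maintaining HOX gene expression. KLA is an agonist of TLR4, the macrophage receptor for bacterial lipopolysaccharide, which acts through NF-κB on cytokine genes and through beta interferon on interferon-stimulated genes.

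The 6 arrays held the same set of sorted values, since the deposited intensities had been quantile normalized. Intensity (linear, arbitrary units) ran from 68.5 to 62999 with a median of 139.5, and dim genes lay close to the lowest values, which makes their fold changes too small. After background correction, 8787 genes were tested. KLA state set the arrays apart on principal component 1 (91.1% of the variance), and the siRNA on component 2 (4.62%), on which the siGABP arrays scored 8.39 and 8.18 against -3.81, 0.57 and -3.97 for the siMLL untreated arrays and -9.36 for the siMLL KLA array. On component 1 the siGABP arrays lay on the KLA side of their siMLL counterparts in both states (-17.4 against -21.8 to -21.1 untreated, 43.1 against 38.7 with KLA). Pairs of siMLL replicates differed by more than 0.5 on the log2 scale in 18 to 50 genes and by more than 1 in 0 genes. The siGABP untreated array differed from each of them in 108 to 142 genes and 4 to 6 genes by the same measures, and the KLA arrays from each other in 224 genes and 3 genes. The macrophage markers Lyz2 (26101 to 35651) and Adgre1 (2493 to 3582) were bright on all 6 arrays, whereas Cd3d of T cells (133.6 to 153.7) and Cr2 of B cells (143.1 to 155.2) lay near the median of all probes. Other marker lists had bright members too. Il7r of the T and NK cell list read 3221 to 6432, S100a8 of neutrophils 790.0 to 919.5 and Pdgfra of the fibroblast list 462 to 846. The markers therefore do not show that the cultures held macrophages only. No slide or scan date was given, so batches could not be examined.

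The GABP subunits moved in opposite directions. Gabpa read 185.7, 180.1 and 187.5 in the siMLL untreated arrays and 127.4 in the siGABP untreated array. With KLA it read 274.9 with siMLL and 157.4 with siGABP. Both siGABP arrays lay below every siMLL array, and with KLA state as covariate Gabpa was 1.73-fold lower (log2 -0.79 ± 0.08 SE, adjusted p = 0.00169). The other 2 Gabpa probes, which were dimmer, read 0.855-fold (4780301) and 0.769-fold (4850279) of the siMLL level. Gabpb1 went the other way, reading 230.7, 225.5 and 231.5 with siMLL against 414.3 with siGABP untreated, and 573.4 against 967.7 with KLA. With KLA state as covariate Gabpb1 was 1.86-fold higher (log2 0.89 ± 0.07 SE, adjusted p = 0.00124). Its second probe was 1.45-fold higher. The Gabpb2 probes were too dim to be tested and differed by -0.16 and 0.12. Kmt2a was not analysed here. Its paralog Kmt2b did not differ detectably (log2 0.00 ± 0.09 SE, adjusted p = 0.983). Atp5j, which encodes coupling factor 6 of the mitochondrial ATP synthase and is transcribed away from Gabpa on the opposite strand, was also lower with siGABP, with 488.4, 540.7 and 511.8 against 333.0 untreated and 507.6 against 337.6 with KLA (log2 -0.66 ± 0.07 SE, adjusted p = 0.00216). A dim second Atp5j probe differed by 0.01. The windows from 250 bases before to 50 after the Gabpa start and an Atp5j start share 247 bases (RefSeq, GRCm38.p6). The Gabpa window is printed here because it lies between these genes, and its capitals mark the letters CCGGAAG, an ETS core, on the opposite strand, which 19.9% of tested genes with a window (7214 of 8787) hold on either strand.
Gabpa, chr16:84834874-84835173, plus strand: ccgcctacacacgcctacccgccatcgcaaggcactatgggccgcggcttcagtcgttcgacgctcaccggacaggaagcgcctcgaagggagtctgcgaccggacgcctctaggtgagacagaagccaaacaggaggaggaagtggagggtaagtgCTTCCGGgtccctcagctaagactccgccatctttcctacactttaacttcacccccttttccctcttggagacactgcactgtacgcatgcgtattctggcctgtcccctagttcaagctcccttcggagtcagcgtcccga

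**Figure D1:**
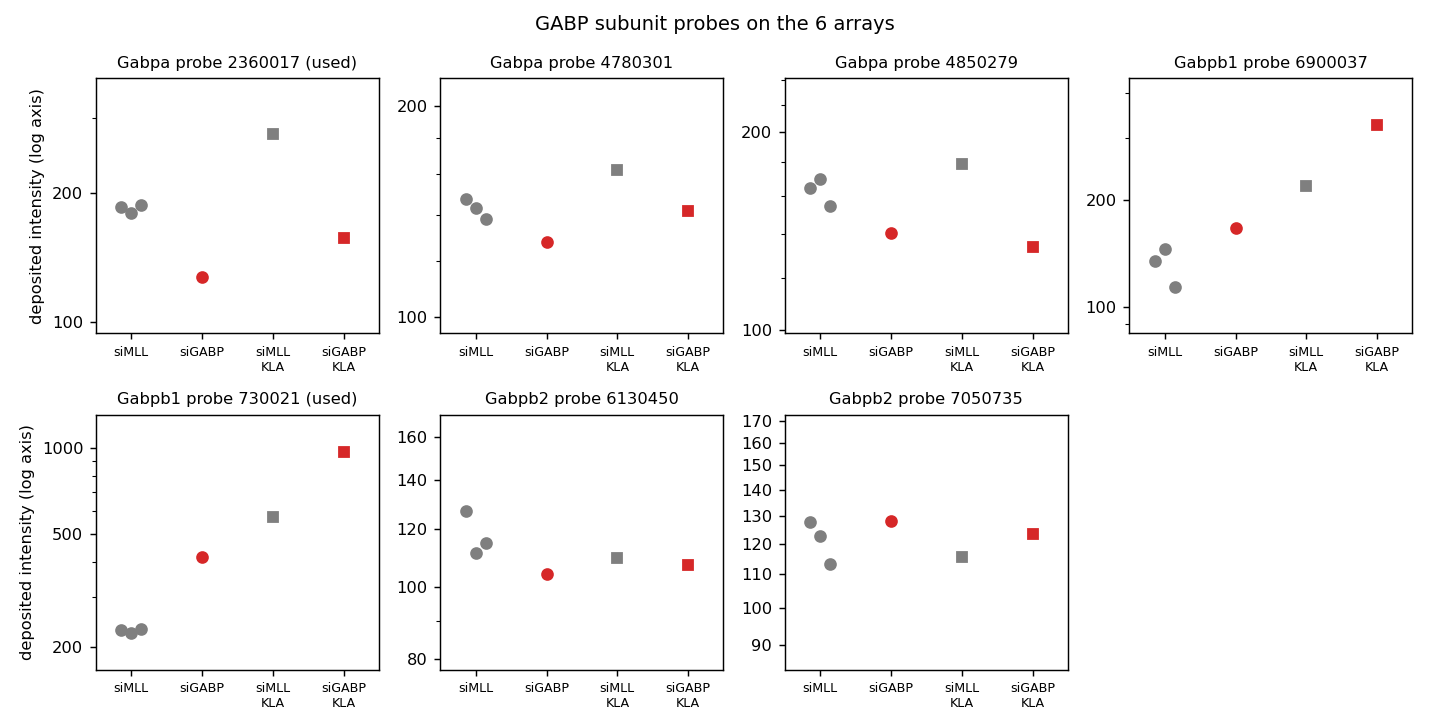
Deposited intensity (log axes, arbitrary units) of each GABP subunit probe on the 6 arrays, 1 point per array, with siMLL in grey, siGABP in red, untreated as circles and KLA for 6 h as squares. All 3 Gabpa probes read lowest with siGABP within each state and both Gabpb1 probes highest, whereas the dim Gabpb2 probes differed by -0.16 and 0.12.

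The first question was which genes differed between siGABP and siMLL cells with KLA state held in the model, which gives the untreated difference a weight of 0.6 and the KLA difference one of 0.4. Of the 8787 genes, 460 (5.24%) were called at an adjusted p under 0.05 with limma, 213 (2.42%) higher and 247 (2.81%) lower with siGABP. The differences were small, with a median size of 0.38 on the log2 scale among called genes (range 0.25 to 1.08) and a median SE of 0.07 over all genes. Only 3 called genes, Sirpa, Clec4e and Slfn1, were at least 2-fold higher, and 0 were at least 2-fold lower. The difference had the same sign in untreated and KLA-treated cells for all 460, as it did for 61.9% of all genes, and the fit itself favours such genes. The siGABP untreated array also lay outside the siMLL triplicate for all 460, as it did for 60.4% of all genes. After KLA 1 array stood against 1, so a gap between the siRNAs there adds no support. The count rested on few arrays. It was 247, 610 and 172 without siMLL untreated replicate 1, 2 and 3, 95 without the siMLL KLA array, 43 without the siGABP untreated array and 93 without the siGABP KLA array.

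The largest differences among genes that were higher were those of Sirpa and Clec4e. Sirpa, an inhibitory receptor of macrophages that binds CD47, read 530.7, 629.0 and 490.6 with siMLL against 1174 with siGABP untreated, and 530.8 against 1013 with KLA (2.12-fold, log2 1.08 ± 0.10 SE, adjusted p = 0.00169). Its level hardly differed between KLA states, and both siGABP arrays lay above all 4 siMLL arrays. Clec4e, which encodes Mincle, a receptor for mycobacterial glycolipid, read 859.2, 874.4 and 826.4 against 2252 untreated and 11601 against 16268 with KLA (2.08-fold, log2 1.06 ± 0.16 SE, adjusted p = 0.00694). The siGABP array was above the siMLL arrays in both states, by 1.44 untreated and 0.49 with KLA. Sirpa and Clec4e were the only called members of 13 measured C-type lectin and SIRP receptor genes (15.4%, against 2.42% of all genes higher). Other named genes that were higher were the formin Diaph1 (0.80), the Ras GTPase-activating protein Rasa4 (0.77), the semaphorin Sema4d (0.77), the TNF receptor Tnfrsf1b (0.73), the PI3K adaptor Pik3ap1 (0.71) and the PI3K catalytic subunit Pik3cd (0.70). Tecpr1, a tether of autophagosomes (0.77), and Ube2l6, which conjugates ISG15 to proteins (0.76), were among the 10 largest, which held Sirpa, Clec4e, Slfn1, Ifit3, Gabpb1, Diaph1, Rasa4 and Sema4d too. Without the siGABP untreated array the calls of Sirpa (adjusted p = 0.0633), Clec4e (0.0845), Slfn1 (0.0845), Ifit3 (0.506) and Ube2l6 (0.0809) were lost. That of Ifit3 was also lost with a lower background offset, with robust variances and without siMLL untreated replicate 1 or 3 (0.0528 to 0.0936). Without the siGABP KLA array the calls of Diaph1, Sema4d, Pik3ap1, Pik3cd and Tnfrsf1b were lost (0.0512 to 0.108), the last 4 also without the siMLL KLA array (0.0504 to 0.107).

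Among genes that were lower with siGABP, the chemokine gene Pf4 (platelet factor 4) had the largest difference, reading 480.5, 430.2 and 516.1 against 308.4 untreated and 523.0 against 261.4 with KLA (1.8-fold lower, log2 -0.85 ± 0.11 SE, adjusted p = 0.00366). Heatr1, a nucleolar protein of ribosome synthesis, read 1329, 1380.3 and 1278 against 827.2 and 1237 against 670.1 (log2 -0.79 ± 0.07 SE, adjusted p = 0.00169). A second bright Heatr1 probe differed by -0.81 and 2 dim ones by 0.01 and -0.06. Ifngr2, the signalling chain of the interferon gamma receptor, read 5365, 5297 and 5297 against 3304 and 3040.2 against 1788 (log2 -0.73 ± 0.06 SE, adjusted p = 0.00149). For these genes the siGABP array lay below every siMLL array of its state. Untreated it did so for every gene called lower, so this adds no support. Fcna, a ficolin of the lectin complement pathway (-0.74), the desaturase Scd2 (-0.79), the sterol enzyme Hmgcs1 (-0.72), asparagine synthetase (Asns, -0.72) and the chemokine Ccl9 (-0.68) made up the 10 largest with Gabpa and Atp5j. The calls of Pf4, Gabpa, Heatr1, Scd2, Fcna and Ifngr2 held under each alternative that gave them a value, whereas those of Hmgcs1, Asns, Ccl9 and Atp5j were lost without the siGABP untreated array (adjusted p = 0.0581 to 0.0938). In RNA from whole cultures, fewer cells of a type and less RNA per cell cannot be told apart.

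**Figure D2:**
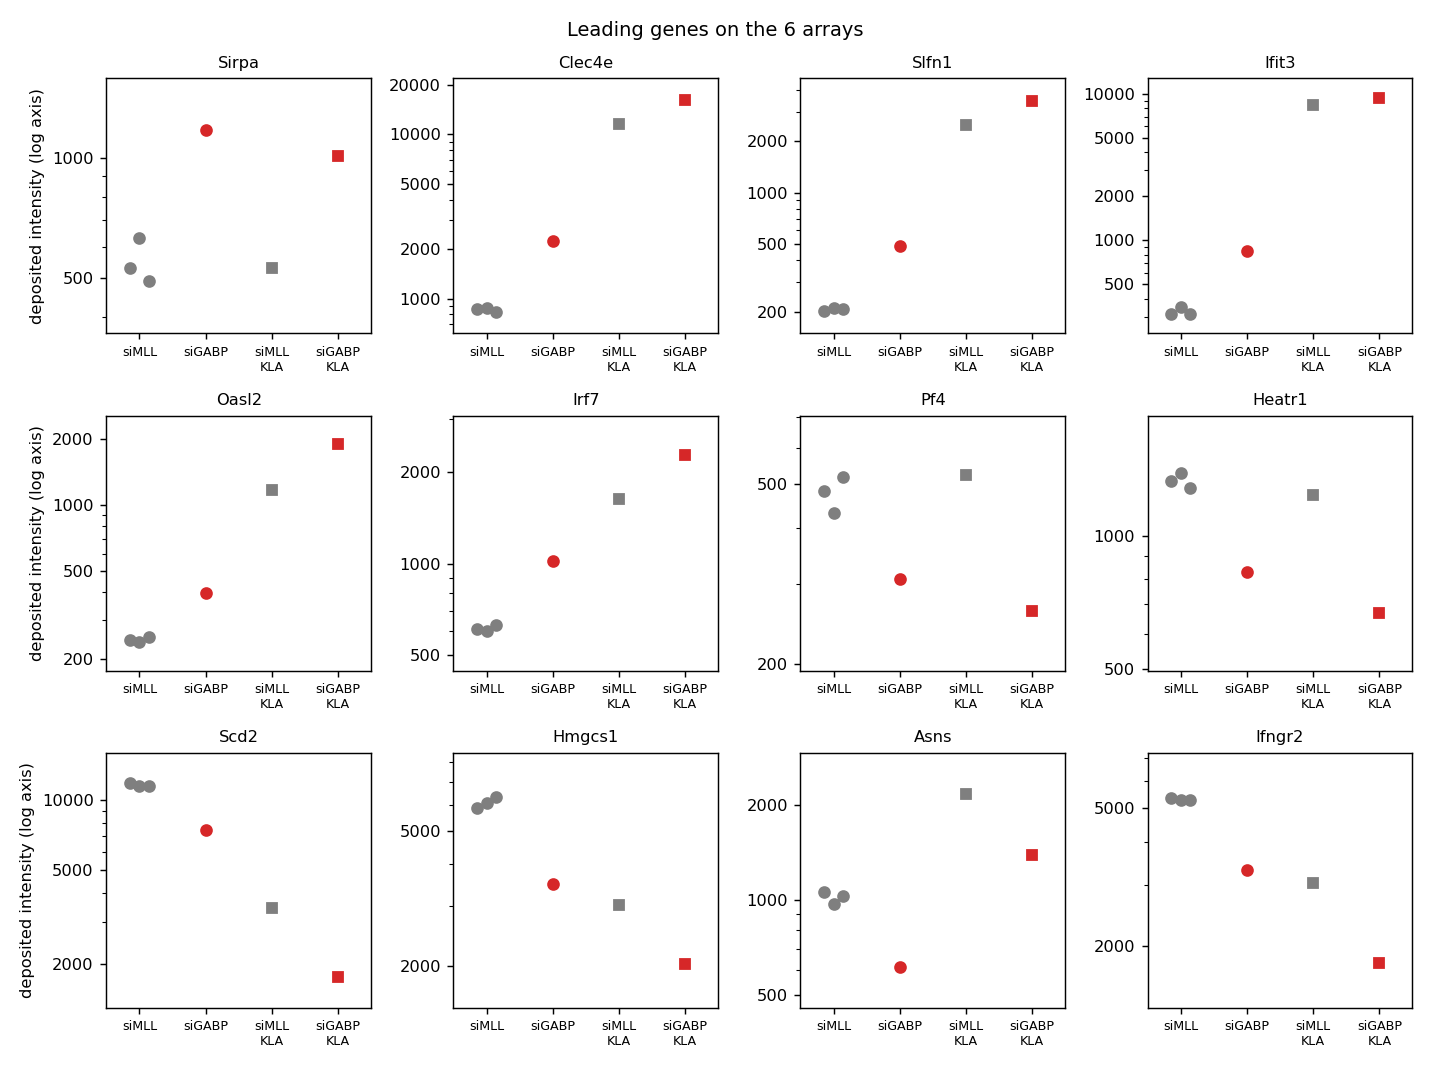
Deposited intensity (log axes, arbitrary units) of 12 genes on the 6 arrays, 1 point per array, with siMLL in grey, siGABP in red, untreated as circles and KLA for 6 h as squares. In each panel the siGABP arrays lie on the same side of the siMLL arrays of their state, with a log2 gap for Ifit3 of 1.46 untreated and 0.16 with KLA. This held for all 460 called genes, so the panels add no support.

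Interferon-stimulated genes, which include antiviral effectors and their regulators, formed the largest group among the genes that were higher with siGABP. Of 51 measured, 22 were called higher and 0 lower (43.1%, against 2.42% of all genes higher), with a median difference of 0.33 against -0.01 over all genes. Ifit3, an RNA-binding antiviral protein, read 313.6, 352.0 and 311.9 with siMLL and 839.1 with siGABP untreated, and 8453 and 9457 with KLA. Slfn1, a schlafen protein of lymphoid and myeloid cells, read 200.9, 208.9 and 208.2 against 483.9 and 2509 against 3477. The log2 gap of Slfn1 was 1.38 untreated and 0.48 with KLA. Oasl2, of the oligoadenylate synthetase family, differed nearly equally in both states, with 244.1, 238.3 and 251.7 against 396.4 and 1165 against 1886 (log2 0.75 ± 0.07 SE, adjusted p = 0.00149), and its call held under all 13 alternatives. Irf7, the interferon regulatory factor that amplifies type I interferon, read 611.3, 600.1 and 628.5 against 1017 and 1636 against 2276 (log2 0.65 ± 0.08 SE, adjusted p = 0.00313). The ubiquitin-like modifier Isg15 read 372.7, 483.9 and 410.7 against 737.0 and 12798 against 17029 (log2 0.68 ± 0.13 SE, adjusted p = 0.0152). In each of these genes the siGABP array was above all siMLL arrays of its state, as it was untreated for every gene called higher. The RNA sensor Ddx58 (RIG-I, 0.66), the ISG15 protease Usp18 (0.56), Oas3 (0.53), Gbp3 (0.52) and the nucleotide kinase Cmpk2 (0.48) were called too. The Ifit, Oas, Slfn and Gbp families hold close paralogs, so a probe may read more than its named gene.

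The differences of the list were wider in untreated cells, although 0 of the 8787 genes, these included, passed a test of the change between states. Without treatment, all 51 genes were higher in the siGABP array than the siMLL mean (median 0.41), as were 4074 of all 8787 genes. The 51 include Cxcl9, which untreated read 128.8, 136.9 and 140.6 against 139.8, near the median of all probes. It passed the intensity filter through its KLA arrays. The untreated sign of such members cannot show a direction. After KLA, 34 of 51 were higher (median 0.12), as were 4246 of all 8787 genes. The difference was smaller in size than untreated for 40 of the 51, as it was for 185 of the 460 called genes. This was not counted over all genes. Oasl2 was still higher (log2 0.71), and Cxcl9, a T-cell chemokine, was lower (1859.7 against 993.0, log2 -0.93). The KLA difference rests on 1 array against 1. Its median SE over all genes was 0.11, against 0.09 untreated, so numbers of called genes cannot be compared between the states. Most of the 22 calls with KLA state as covariate were lost without the siGABP untreated array. There were 10 calls without siMLL untreated replicate 1 and 7 without replicate 3. Between untreated and KLA arrays these genes differed by far more, with a median log2 difference of 2.59 in siMLL and 2.16 in siGABP cells. Cytokine genes of the KLA response did not all lie on one side of the siMLL arrays in the untreated siGABP array. Cxcl2 read 280.4 against 215.1, 213.7 and 205.3 (log2 0.47, untreated adjusted p = 0.0454) and was the only one of 30 cytokine and chemokine genes called higher untreated, while 2 were called lower. Cxcl1 read 505.4 against 624.8, 684.7 and 676.8 (log2 -0.41, adjusted p = 0.0915) and lay below all 3 siMLL arrays. Tnf read 217.3 against 194.1, 181.7 and 189.7, Cxcl10 137.5 against 120.7, 116.1 and 129.6, Il6 131.7 against 124.8, 128.0 and 120.2 and Il1b 119.2 against 120.1, 112.1 and 126.5, none of them called. The untreated readings of Cxcl10, Il6 and Il1b lay below the median intensity of all probes (139.5), where fold changes are too small. These 3 genes passed the intensity filter through their KLA arrays, so their untreated values cannot show whether they differed. Dendritic cell markers had a summed level of 1947 in that array against 1546 to 1640 in the siMLL untreated arrays, mostly through Itgax (1271 against 968.6, 926.5 and 876.3), and T and NK cell markers one of 6875 against 5899 to 6233, mostly through the interleukin 7 receptor Il7r (6432 against 5590.4, 5422 and 5806), with 0 of 4 measured genes called. Their part in the interferon result was not tested.

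Promoters of the interferon-stimulated genes were searched for the letters GAAA followed, after any 2 bases, by GAAA, the core of the interferon-stimulated response element, on both strands of the window from 250 bases before to 50 after a start. The letters occurred in 3.92% of the tested genes with a window, in 12.8% of called higher genes (22 of 172), in 2.54% of called lower genes (5 of 197) and in 50% of the interferon list (21 of 42). Of the 17 called members with a window, 7 held them (Ifit3, Isg15, Oas1g, Oas3, Ddx58, Gbp3 and Trim30a). The list was drawn from genes known as interferon-induced, many through this element, so its share is no finding about these arrays. The windows of Ifit3 (log2 1.46 untreated and 0.16 with KLA) and Isg15 (0.86 and 0.41) are shown with the matches in capitals. For Slfn1, Oasl2 and Irf7 the window held no match. The ETS letters CCGGAAG occurred in 20.9% of called higher and 20.8% of called lower genes, near the 19.9% of all genes, and in 0 of the 17 called interferon genes.
Ifit3, chr19:34583279-34583578, plus strand: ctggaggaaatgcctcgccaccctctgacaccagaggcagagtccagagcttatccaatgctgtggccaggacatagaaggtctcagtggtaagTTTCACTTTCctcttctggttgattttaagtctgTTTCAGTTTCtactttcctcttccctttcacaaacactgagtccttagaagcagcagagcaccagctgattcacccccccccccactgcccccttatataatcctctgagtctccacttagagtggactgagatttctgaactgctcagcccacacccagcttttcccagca
Isg15, chr4:156200769-156201068, minus strand: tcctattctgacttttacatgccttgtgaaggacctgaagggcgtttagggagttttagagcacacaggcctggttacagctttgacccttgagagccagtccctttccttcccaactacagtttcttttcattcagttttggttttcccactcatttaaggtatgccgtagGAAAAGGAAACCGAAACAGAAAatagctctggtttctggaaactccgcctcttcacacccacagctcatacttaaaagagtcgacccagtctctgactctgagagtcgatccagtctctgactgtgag

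**Figure D3:**
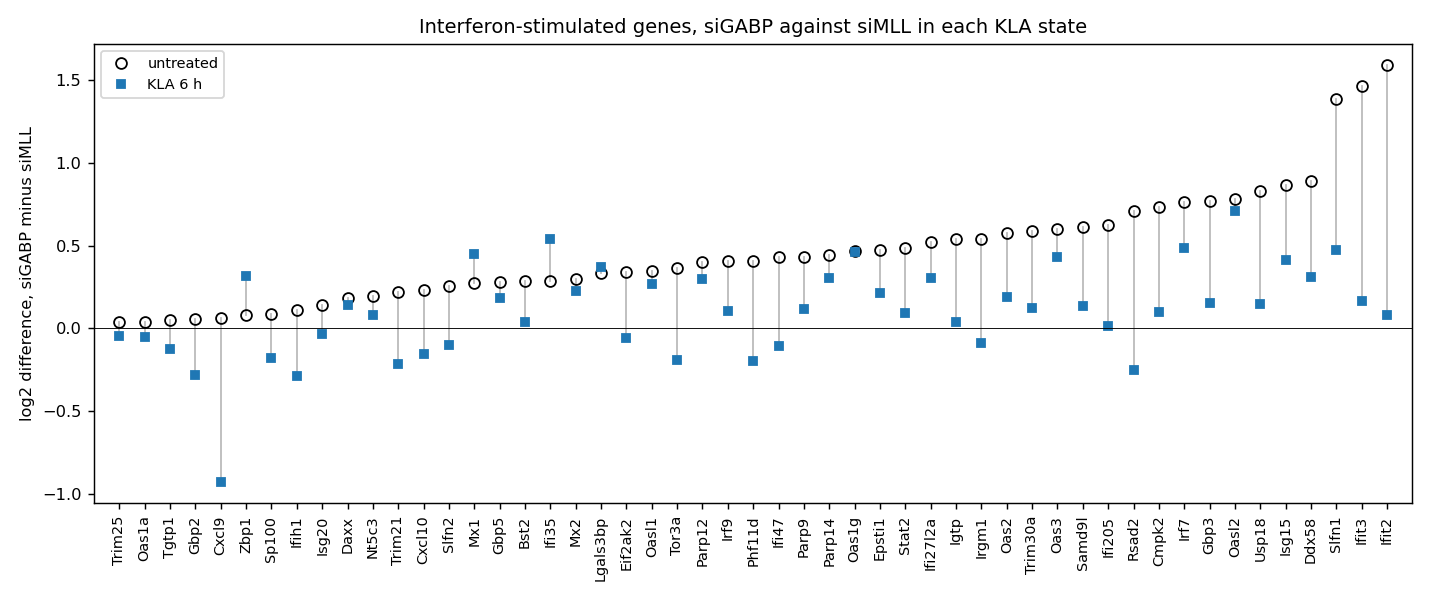
Difference siGABP minus siMLL (log2) of the 51 interferon-stimulated genes, sorted by the untreated difference (open circles, 1 against 3 arrays), with the difference after 6 h of KLA (blue squares, 1 against 1 array) joined to it by a line. All 51 circles lie above 0 and 34 squares do, and the squares of Ifit2 and Ifit3 lie near 0 (0.08 and 0.16) under circles at 1.59 and 1.46. Members that passed the intensity filter through their KLA arrays, such as Cxcl9, were too dim untreated to show a direction.

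Called antigen presentation genes were all higher. Of 18 MHC class I genes, 5 were called higher and 0 lower (27.8%, against 2.42% of all genes higher), with a median of 0.17. Tapbp, which holds class I molecules on the peptide transporter, read 414.7, 486.4 and 372.7 against 666.0 untreated and 985.9 against 1703 with KLA (log2 0.75 ± 0.11 SE, adjusted p = 0.00539), although siMLL replicates themselves spread widely. The transporter subunit Tap1 (0.43) and the class I genes H2-Q6 (0.53), H2-Q8 (0.57) and H2-T22 (0.55), which have close paralogs, were the others. The count was 3 without either KLA array and 0 without the siGABP untreated array. Of 14 MHC class II and costimulation genes, H2-Ab1 (0.32), the peptide loader H2-DMa (0.44) and Cd86 (0.32) were called higher and 0 lower (21.4%, against 2.42% of all genes higher). The count was 1 without siMLL untreated replicate 1 or 3, with an offset of 16 or without the intensity filter, and 0 without the siGABP untreated or either KLA array. The H2-DMa probe read 159.5, 157.3 and 152.6 against 199.1 and 130.8 against 166.3. Psme1, a subunit of the interferon-inducible proteasome activator, was the only called member of 42 proteasome genes (log2 0.29), a share of 2.38% against 5.24% of all genes.

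Called genes of lipid synthesis were all lower with siGABP. Of 19 sterol synthesis genes, 0 were called higher and 7 lower (36.8%, against 2.81% of all genes lower), with medians of -0.23 untreated and -0.24 with KLA. Hmgcs1, which makes the HMG-CoA that feeds the pathway, read 5845, 6049 and 6334 with siMLL against 3484 with siGABP untreated and 3023 against 2027 with KLA (1.65-fold lower, log2 -0.72 ± 0.07 SE, adjusted p = 0.00216). The cholesterol carrier Stard4 read 881.2, 913.0 and 913.8 against 636.8 and 503.7 against 374.5 (log2 -0.50 ± 0.06 SE, adjusted p = 0.00383). For both genes the siGABP array read below the siMLL arrays of its state, as it did untreated for every gene called lower. The methylsterol oxidase Msmo1 (-0.44), the farnesyl diphosphate synthase Fdps (-0.42), the squalene epoxidase Sqle (-0.38), Nsdhl (-0.33) and Mvd (-0.33) were the other members that passed. The 7 calls became 4 without siMLL untreated replicate 3, 3 without either KLA array and 0 without the siGABP untreated array. The Hmgcs1 window is shown with the letters TCACNCCAC, a sterol response element, in capitals, since it was the only one of 15 sterol genes with a window, 4 of them called, to hold them (1.48% of all genes did).
Hmgcs1, chr13:119690101-119690400, plus strand: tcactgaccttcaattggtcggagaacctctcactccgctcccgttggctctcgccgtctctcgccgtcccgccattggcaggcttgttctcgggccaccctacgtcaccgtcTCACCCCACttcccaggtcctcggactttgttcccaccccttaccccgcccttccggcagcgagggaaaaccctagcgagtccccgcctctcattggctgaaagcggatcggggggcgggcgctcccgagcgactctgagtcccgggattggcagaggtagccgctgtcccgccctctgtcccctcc

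Fatty acid synthesis and desaturation genes, a list added after the leading genes had been seen, showed the same direction. Of 13 measured, 0 were called higher and 6 lower (46.2%, against 2.81% of all genes lower). A negative difference was seen for 12, as for 4761 of all 8787 genes, and the median was -0.07 untreated and -0.43 with KLA. The leading genes seen before the list was added included Scd2, so these shares are no independent support. Scd2, a stearoyl-CoA desaturase, read 11789.8, 11514 and 11427 against 7419.6 untreated and 3461 against 1750.3 with KLA (1.72-fold lower, log2 -0.79 ± 0.08 SE, adjusted p = 0.00216). Scd1, its paralog, read 2455, 2564 and 2579 against 1711 and 1515 against 936.4 (log2 -0.63 ± 0.07 SE, adjusted p = 0.00216). Fatty acid synthase (Fasn) read 2702, 2406 and 2763 against 1946 and 868.0 against 506.9 (log2 -0.59 ± 0.10 SE, adjusted p = 0.00915). The siGABP array was below all siMLL arrays of its state for these genes, as it was untreated for every gene called lower. The KLA array read lower than the untreated arrays with either siRNA. The delta-5 desaturase Fads1 (-0.52), the acetyl-CoA carboxylase Acaca (-0.40) and the elongase Elovl6 (-0.37) passed as well. The 6 calls became 2, Scd1 and Scd2, without either KLA array. In the partly overlapping list of LXR and PPAR lipid genes, 6 of 17 were called lower and 0 higher (35.3%, against 2.81%), the further ones being apolipoprotein E (Apoe, -0.35) and lipoprotein lipase (Lpl, -0.27), and the count was 2 without either KLA array and 3 without the siGABP untreated array.

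Genes of the integrated stress response and amino acid supply also had called members in the lower direction only, 6 of 22 (27.3%, against 2.81% of all genes lower). Asns, which makes asparagine, read 1058, 968.6 and 1027 with siMLL against 615.0 with siGABP untreated and 2164 against 1389 with KLA (1.64-fold lower, log2 -0.72 ± 0.07 SE, adjusted p = 0.00169). Ddit3, the stress transcription factor CHOP, read 1898, 2189 and 1971 against 1278 and 1475 against 1306 (log2 -0.47 ± 0.11 SE, adjusted p = 0.0355). The difference was even between states for Asns (-0.76 and -0.65) and mostly untreated for Ddit3 (-0.67 and -0.18). The glutathione-degrading enzyme Chac1 (-0.44), the serine synthesis enzyme Psat1 (-0.43), the large neutral amino acid transporter Slc7a5 (-0.41) and the mitochondrial folate enzyme Mthfd2 (-0.31) also passed. The list's median was -0.07, and 0 calls were left without the siGABP untreated array. Asns and Chac1 were the 2 of 5 called members with a window that held the letters TGATGNAA, a C/EBP-ATF response element, on either strand (capitals). Of the 21 members with a window, called or not, 6 held them (28.6%), against 3.19% of all genes. The list was drawn from genes known for this response, so its share is no finding about these arrays.
Asns, chr6:7693160-7693459, minus strand: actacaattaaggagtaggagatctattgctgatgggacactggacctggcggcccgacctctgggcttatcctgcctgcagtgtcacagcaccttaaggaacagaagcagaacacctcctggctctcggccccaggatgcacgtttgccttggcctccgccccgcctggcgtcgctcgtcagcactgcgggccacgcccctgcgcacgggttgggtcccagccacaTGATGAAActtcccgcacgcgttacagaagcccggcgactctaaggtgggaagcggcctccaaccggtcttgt
Chac1, chr2:119350992-119351291, plus strand: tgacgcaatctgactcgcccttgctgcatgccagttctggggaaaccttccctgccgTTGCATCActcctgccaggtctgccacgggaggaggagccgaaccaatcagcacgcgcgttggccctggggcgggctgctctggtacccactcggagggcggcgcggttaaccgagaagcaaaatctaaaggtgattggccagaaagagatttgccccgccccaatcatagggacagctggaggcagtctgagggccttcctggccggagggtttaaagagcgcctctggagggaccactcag

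Cytokine and chemokine genes did not move one way. Of 30 measured, Tnf (0.27), Il18 (0.31) and the neutrophil chemokine Cxcl2 (0.34) were called higher, and Pf4, Ccl9 (-0.68) and Ccl6 (-0.48) lower (20%, against 5.24% of all genes). The count was 2 without the siGABP untreated array and 3 without either KLA array or siMLL untreated replicate 1 or 3. Ccl9 read 1004, 1107 and 1004 against 607.8 untreated and 4015 against 2855 with KLA. Tnf and Cxcl2 lay near the threshold (adjusted p = 0.0488 and 0.0415), and the call of Tnf was lost under 9 of 13 alternatives. Of the other standard TLR4 targets, Il6 (-0.04), Il1b (log2 -3.5e-05), Ptgs2 (0.02), Cxcl10 (0.08), Nos2 (-0.05), Relb (0.13), Isg20 (0.07) and Slc7a11 (-0.06) did not pass. Tnf was 96.5-fold higher after KLA than untreated with siMLL and 101-fold with siGABP, and Cxcl2 59.6-fold and 47.7-fold. The inhibitor Nfkbie was the only called gene of 23 NF-κB subunits and feedback genes (0.37), the kinase Irak2 the only one of 21 TLR4 pathway genes (0.35), and 0 of 13 AP-1 and EGR factors passed. These shares (4.35%, 4.76% and 0%) lay near or below the 5.24% of all genes.

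Gene groups known for GABP or MLL stayed near the background. Of 19 textbook GABP targets, some of them respiratory chain genes, 0 were called, with a median of 0.00 and a range of -0.25 to 0.23. Of 73 oxidative phosphorylation genes, 1 was called higher (Cox5a, 0.31) and 2 lower (Atp5j and Cox6a2, -0.62), a share of 4.11% against 5.24% of all genes. Cox6a2, the muscle form of a cytochrome oxidase subunit, read 693.8, 759.5 and 759.9 against 471.8 untreated and 656.4 against 464.1 with KLA. Of 70 cytosolic ribosomal protein genes 1 was lower (1.43%, Rpl31, -0.33) and of 70 mitochondrial ones 2 (2.86%, Mrps34, -0.48, and Mrpl52, -0.35). In the lists on the MLL side, 0 of 8 textbook MLL targets passed, and among 14 genes of the complexes that methylate H3K4 only the coactivator Ncoa6 did (0.49). Other ETS factors counted 0 of 11.

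The other lists held few called genes. Lower in siGABP were the macrophage markers C1qa (-0.42) and C1qb (-0.43), which encode complement C1q, the peritoneal macrophage factor Gata6 (-0.36) and the scavenger receptor Marco (-0.27), 4 of 15 measured (26.7%, against 2.81% of all genes lower). The count was 2 without siMLL untreated replicate 1, 1 without replicate 3 and 0 without the siGABP untreated or either KLA array. C1qb read 1049, 1275 and 1091 against 786.0 untreated and 986.4 against 835.4 with KLA. The summed level of all 15 markers, mostly that of Lyz2, did not separate the siRNAs untreated (46622 against 45943 to 50312). With KLA the sum was 48192 with siGABP against 41489 with siMLL. Such a sum says little about the dimmer markers. Of the 15, 6 had a positive and 9 a negative difference (median -0.04). The glucose transporter Slc2a1 (-0.44) and Ndrg1 (-0.31) were lower and the glycolytic regulator Pfkfb3 (0.32) higher among 17 glycolysis and hypoxia genes (17.6%, against 5.24% of all genes). Ccnd1 (-0.28) and Mcm5 (-0.27) were lower and Mcm3 (0.36) higher among 27 cell cycle genes (11.1%). In both lists 0 calls were left without the siGABP untreated or either KLA array. Single called genes were glutathione peroxidase Gpx1 (0.45, of 16 antioxidant genes), the siderophore binder Lcn2 (0.42, of 14 iron genes and 6 neutrophil markers), the integrin Itgax (0.47, of 5 dendritic cell markers), the collagenase Mmp13 (-0.40, of 17 protease genes) and the lysosomal protective protein Ctsa (0.44, of 23 lysosomal genes). These shares were 4.35% to 7.14%, near the 5.24% of all genes, except in the short neutrophil (16.7%) and dendritic cell (20%) lists. The heat shock, alternative activation, B cell, T and NK cell, mast cell, mesothelial and erythroid lists held 0 called genes.

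**Figure D4:**
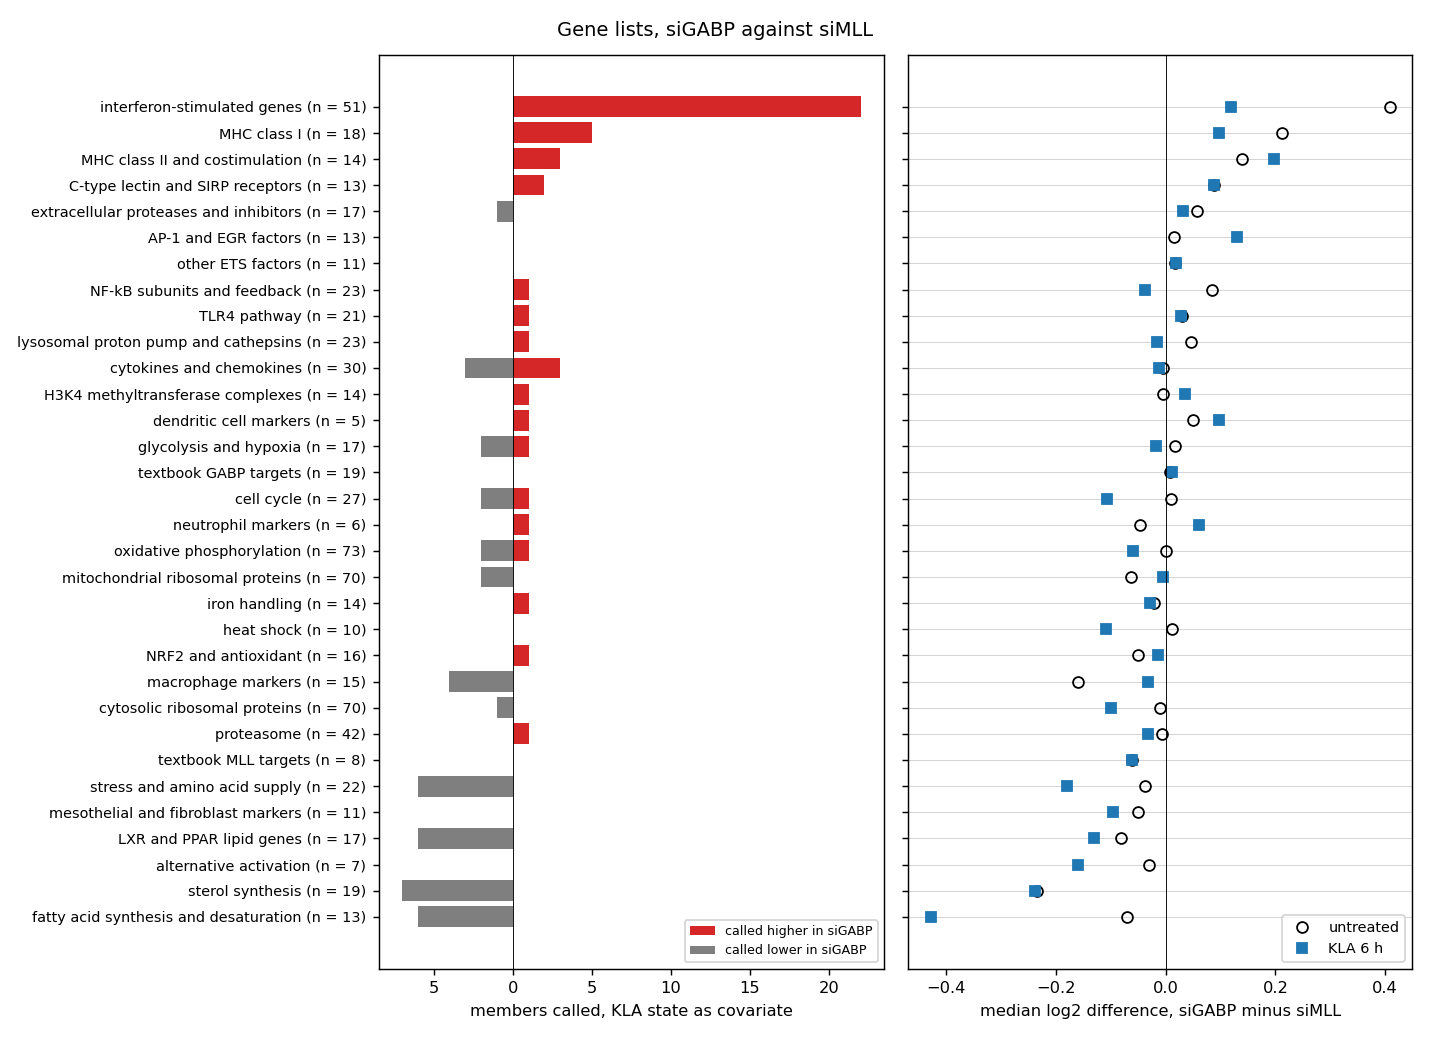
Gene lists with at least 5 measured genes, with the number of members called higher (red, right of 0) or lower (grey, left of 0) with KLA state as covariate on the left, and the median difference siGABP minus siMLL (log2) untreated (open circles) and after KLA (blue squares) on the right. Interferon-stimulated genes had the most members called higher (22 of 51, median 0.41 untreated and 0.12 with KLA), and sterol synthesis the most called lower (7 of 19). The fatty acid list (6 of 13 lower) was added after the leading genes had been seen.

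The second question was what differed in untreated cells alone. The siGABP array was set against the siMLL triplicate, whose spread stood for that of the lone array. Of 8787 genes 96 (1.09%) were called, 55 (0.626%) higher and 41 (0.467%) lower, and 90 of them were among the 460. The 5 largest rises were Ifit2 (436.7, 536.0 and 470.4 against 1378, log2 1.59, adjusted p = 0.00406), Ifit3 (1.46), Clec4e (1.44), Slfn1 (1.38) and Sirpa (1.15). Ifit2, an antiviral protein of the Ifit3 family, was the gene with the largest rise and yet not called with KLA as covariate (adjusted p = 0.0531), and it read 15794 and 16674 with KLA. The 5 largest falls were Hmgcs1 (-0.81), Ccl9 (-0.81), Asns (-0.76), Heatr1 (-0.71) and Ifngr2 (-0.69). The count was 45, 143 and 8 without siMLL replicate 1, 2 and 3.

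The third question was the difference after 6 h of KLA, where each siRNA had 1 array. The values are a description of those arrays, and the fitted p assumes that they varied like the untreated triplicate. Under that assumption 43 genes (0.489%) were called, 24 (0.273%) higher and 19 (0.216%) lower, 33 of them among the 460 and 17 also called untreated. The 5 largest rises were Diaph1 (383.6 against 776.6, log2 1.08), Pik3ap1 (0.98), Pik3cd (0.98), Tnfrsf1b (0.97) and Sema4d (0.95). None of them was an interferon-stimulated gene on the list. The neutrophil chemokine Cxcl5 had the largest fall, with 547.0 against 260.1 (-1.18), followed by Pf4 (-1.10), Scd2 (-0.997), Gabpa (-0.96) and the poliovirus receptor homolog Pvr (395.3 against 220.6, -0.95). Untreated, Cxcl5 read 349.7, 283.0 and 332.4 against 264.8, so that its KLA level was 1.79-fold of the untreated with siMLL and 0.98-fold with siGABP. The count was 26, 298 and 0 without siMLL untreated replicate 1, 2 and 3.

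The untreated and the KLA difference share no array. Across the 8787 genes they correlated at Pearson r = 0.466 (Spearman rho 0.383), and between 0.302 and 0.580 under the alternatives, as a description, since genes are not independent replicates. Whether the difference depended on KLA state was tested as a difference of differences with limma. Here 0 genes were called (0%), 681 (7.75%) had an unadjusted p under 0.05, and the smallest adjusted p was 0.255. Fits with a variance trend and with robust variances also called 0. On simulated data with 200 changed genes, the difference of differences recovered 38.1% of changes of log2 0.5 and 99.4% of those of log2 1. The fit with KLA state as covariate recovered 99.6% of those of log2 0.5. These shares hold for the simulated spread only. The absence of calls therefore cannot show that the difference was the same in both states. The genes with the smallest p and a lower value of the difference after KLA than untreated were Ifit3 (-1.30), Ifit2 (-1.51), Clec4e (-0.95), Slfn1 (-0.91) and Cxcl9 (-0.99). For Cxcl9 this ran from 0.06 untreated to -0.93 with KLA, while the other 4 were positive in both states (0.08 to 0.49 with KLA). In the other direction they were Plekhn1 (0.78), the Ral exchange factor Ralgds (0.76), Igsf8 (0.67), the interleukin 12 subunit Il12a (0.60) and the ADP receptor P2ry13 (0.62). Il12a read 138.5, 139.9 and 138.1 against 129.7 untreated and 1208 against 1660.1 with KLA. Its untreated readings, like those of Cxcl9 (128.8 to 140.6), lay near the median of all probes (139.5), where fold changes are too small. Both genes passed the intensity filter through their KLA arrays. Their change between states thus rests mainly on the KLA gap of 1 array against 1. Ifit2 (adjusted p = 0.0376) and Ifit3 (0.0376) passed only when siMLL untreated replicate 2 was left out. From untreated to KLA, Ifit3 was 28.8-fold higher with siMLL and 11.7-fold with siGABP, Ifit2 35.3-fold and 12.4-fold, and Clec4e 14.1-fold and 7.32-fold, from untreated levels that were higher with siGABP.

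**Figure D5:**
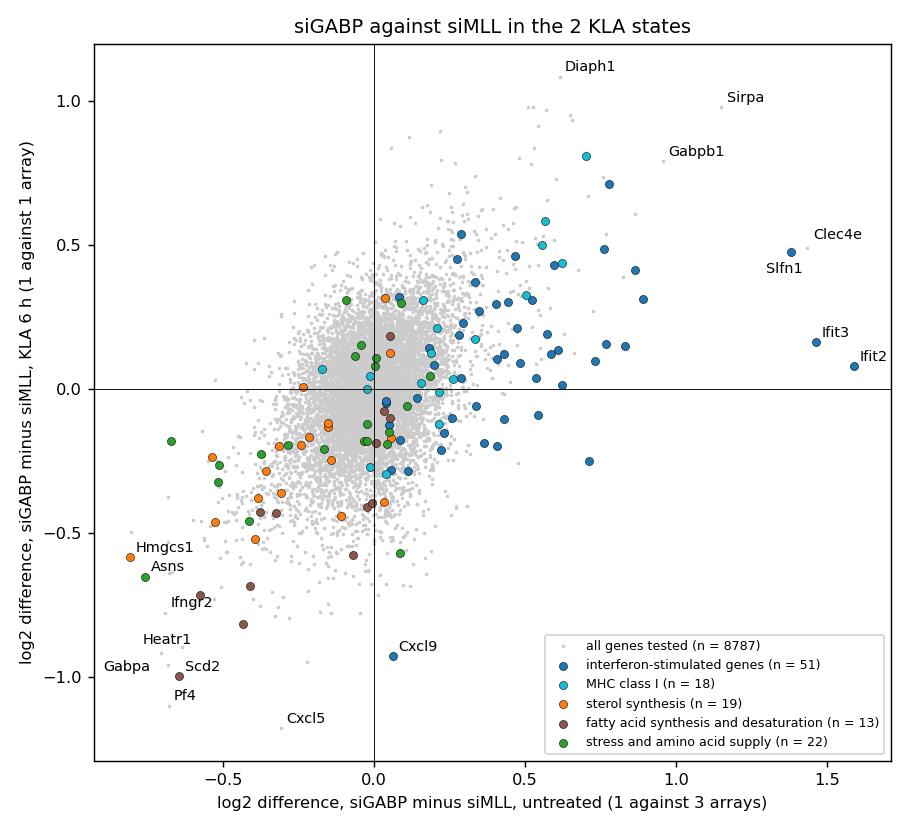
Difference siGABP minus siMLL (log2) untreated (x axis, 1 against 3 arrays) and after 6 h of KLA (y axis, 1 against 1 array) for the 8787 genes tested, with 5 gene lists coloured. Interferon-stimulated genes (blue) spread to the right along the x axis, with Ifit2 at 1.59 and 0.08, and Sirpa and Gabpb1 lie far out on both axes, as Scd2, Pf4 and Gabpa do in the lower direction.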

How the data were processed

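Total RNA from thioglycollate-elicited C57BL/6 macrophages was measured on Illumina arrays. The deposited values are linear intensities that the authors had quantile normalized over all 8 arrays, so the arrays of scrambled-siRNA cells took part in setting the common distribution, and that were made with BeadStudio 1.5.1.3 per the submitters' processing notes. They come without detection values, so dim probes could not be told from background. A second table, with 16 columns named by running numbers that match no label, was not used. Genes were named from the platform annotation (20917 of 23978 probes with 1 gene, 1 with several, 3060 with none), and 20903 were updated by Entrez ID.

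The 6 arrays were background corrected (normexp, offset 50), quantile normalized and log2 transformed. Named probes with a mean above the median of all probes (log2 6.73) were kept (10761), with the brightest probe for each of 8787 genes. Of 112 called genes with several such probes, 23 had probes of both signs. R 4.3.3 and limma 3.58.1 served for all models, which were either additive in siRNA and KLA (3 residual degrees of freedom) or with a mean per group (2, from the siMLL untreated triplicate only). Tests were two-sided, with Benjamini-Hochberg adjustment over all genes and calls at an adjusted p under 0.05. Differences are siGABP minus siMLL on the log2 scale with their SE.

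Named genes were the 10 largest called differences each way with the same sign in both states and the siGABP untreated array outside the triplicate, the 5 largest each way (or 5 smallest p) of the other contrasts, up to 4 per list with the largest statistic, the targeted genes and standard TLR4 targets. Other called list members are named to complete counts. Members and gene lists were chosen with earlier results of these data known. Each fit was tested on simulated data with known differences, where false calls made up 6.8% to 7.49% of calls, above the nominal 5%. The lone siGABP and KLA arrays give no spread of their own. The simulation therefore could not test whether they varied like the siMLL triplicate, and the share of false calls on the real arrays is not known. The number of arrays limits the precision. Alternatives covered the offset, background correction, intensity filter, probe choice, variance model and each array in turn. Sequences are from RefSeq (GRCm38.p6).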

Additional observations from a re-analysis of the deposited data

How the results depend on the processing

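No paired analysis was possible because only the siMLL untreated group carries replicate numbers. Of the 460 genes called with KLA state as covariate, 0 reversed sign under any alternative. The count was 271 with an offset of 16 (269 shared) and 233 without the intensity filter (229 shared), and leaving out 1 array at a time gave 43 to 610. Without the siGABP untreated array that fit is the KLA contrast by construction, and without either KLA array it is the untreated contrast. The 96 untreated calls became 6 with an offset of 16, 23 without the filter and 161 with a variance trend (8 to 143 leaving out replicates). The 43 KLA calls became 0 with an offset of 16, 0 without the filter, 0 with a filter at the upper quartile, 28 probes with every probe tested, 69 with robust variances, 86 without background correction and 97 with a variance trend (0 to 298 leaving out replicates). The difference of differences had 0 to 2 calls leaving out replicates. Of 51 interferon-stimulated genes 10 were called with an offset of 16 and 13 without the filter. Leaving out arrays gave 2 to 21 interferon, 0 to 6 MHC class I, 0 to 7 sterol, 2 to 6 fatty acid (a list added after seeing the data), 2 to 7 LXR and PPAR and 0 to 7 stress genes called. Genes that did not pass changed sign when arrays were left out, with Cxcl10 from -0.15 to 0.23, Cxcl9 from -0.93 to 0.0626, Il12a from -0.13 to 0.47, Il1b from -0.0361 to 0.0330 (0.00122 with an offset of 16), Il6 from -0.27 to 0.11, Isg20 from -0.0309 to 0.14, Kmt2b from -0.16 to 0.25, P2ry13 from -0.16 to 0.46 and Ptgs2 from -0.0357 to 0.0942. Causes were not tested. The untreated, KLA and difference contrasts gave no value without a lone array. With 1 siGABP array per state, the smallest called difference was 0.45 untreated and 0.62 with KLA. Smaller differences were not called in a single state, and signal near background limits dim genes.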
